A study of Mus musculus with 15 samples.

Results

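MIGA2-KO 3T3-L1 cells harvested 6 days after the start of adipocyte differentiation were compared with MIGA2-KO cells at day 0. The comparison used 6 of the 15 RNA-seq libraries of the series, 3 for each day, chosen by their sample titles. 3T3-L1 is an established mouse line of fibroblast-like preadipocytes that turn into fat-storing cells when treated with hormones. The titles call the cells MIGA2-KO and the genotype label calls them MIGA2 depleted. The sources used here do not give how the gene was disrupted or whether the cells were 1 clone or a mixed population. Day 0 cells had stood at full confluence for 48 h. From day 0 the cells received 10% fetal bovine serum with 1 µM dexamethasone (a glucocorticoid), 0.5 mM IBMX (a phosphodiesterase inhibitor) and 1 µg/mL insulin. From day 2 they had serum with the same dose of insulin, and from day 4 serum alone until harvest at day 6. WT cells, 3 libraries at each day, went through the same protocol and served as the comparison for the size of each change. The 6 libraries hold no cells kept for 6 days without the agents, so the agents, the change of serum and time cannot be told apart. The labels do not say whether the 3 libraries of a group came from separate cultures, and p-values then cover only the spread between these libraries, which may be technical.

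In adipogenesis, glucocorticoid and cyclic AMP signals induce the transcription factors CEBPB and CEBPD, which bring on PPARG and CEBPA. PPARG and CEBPA then switch on genes for lipid uptake, triacylglycerol storage and secreted hormones while the matrix and contractile genes of the fibroblast are turned down. MIGA2 (mitoguardin 2) sits in the outer membrane of mitochondria. It links mitochondria to the endoplasmic reticulum and to lipid droplets and has been tied to triacylglycerol storage in adipocytes. The design asks how the transcriptome changes when cells depleted of this protein are taken through differentiation.

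The targeted gene was checked first. Miga2 (ENSMUSG00000026858, GRCm38 chromosome 2: 30364233 to 30385521, forward strand) was at 17.2, 21.4 and 22.6 CPM at day 0 and 926, 74.5 and 70.02 CPM at day 6, where CPM is the count divided by the TMM-adjusted library total and multiplied by 1000000. In WT cells it went from 15.7 ± 2.06 CPM to 162 ± 18.4 CPM (mean ± SD, n = 3). Miga2 mRNA was thus present in every MIGA2-KO library, and the library labelled MIGA2-KO day 6 replicate 1 held 12.8 times the mean of the other 2 of its group. The rise passed the test (log2 fold change 4.13 ± 0.77, adjusted p = 0.000487) and passed without that library (1.83, adjusted p = 1.95e-07). Adjusted p-values here and below come from edgeR's quasi-likelihood test with Benjamini-Hochberg adjustment over all 12279 genes tested, errors of log2 fold changes are standard errors, and a gene is called at an adjusted p under 0.05. Counts per gene do not show whether the Miga2 mRNA can be translated. The paralogue Miga1 was at 0.883, 1.68 and 1.22 CPM at day 0 and 3.48, 1.73 and 1.57 CPM at day 6 and was not called (log2 fold change 0.83 ± 0.38, adjusted p = 0.0939).

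Of the 6 libraries, which held 10956827 to 12619058 counts each, the 3 of day 0 were closely alike and the library labelled MIGA2-KO day 6 replicate 1 stood apart from its group. Between pairs of libraries the chi-square statistic divided by its degrees of freedom was 1.72 to 2.85 at day 0, 2.23 between replicates 2 and 3 of day 6, and 32.9 and 37.7 between replicate 1 and these. A set of 20 genes, chosen because each had at least 20 counts in replicate 1 and over 8 times the sum of the other 2 libraries plus 1, summed to 2582 counts in replicate 1 and to 81 and 80 in replicates 2 and 3. It includes genes of mature fat cells: Pde3b, for the phosphodiesterase through which insulin restrains lipolysis, had 49, 52 and 34 counts at day 0 and 588, 29 and 35 at day 6. Cidea, for a lipid droplet protein, had 0, 0 and 0 counts at day 0 and 153, 0 and 1 at day 6. The same rule found 0 genes in replicate 2 and 25 in replicate 3, all of them genes of skeletal muscle fibres, with 2302 counts in replicate 3 against 25 and 26 in the other 2. Myh4, for a fast myosin heavy chain, had 0, 0 and 0 counts at day 0 and 0, 3 and 395 at day 6, and Atp2a1, for the calcium pump of fast fibres, had 0, 0 and 0 counts at day 0 and 0, 0 and 286 at day 6. The myogenic regulators Myod1 and Myog had 0 counts in all 6 libraries. These genes were chosen after their values were seen. Each result below is given with replicate 1 of day 6 and, where leaving it out ends the call or moves the value by over 1.5 times, also without it ("without replicate 1"). For genes with 0 counts or 1 count at day 0 the level in each day 6 library is given in its place.

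**Figure D1:**
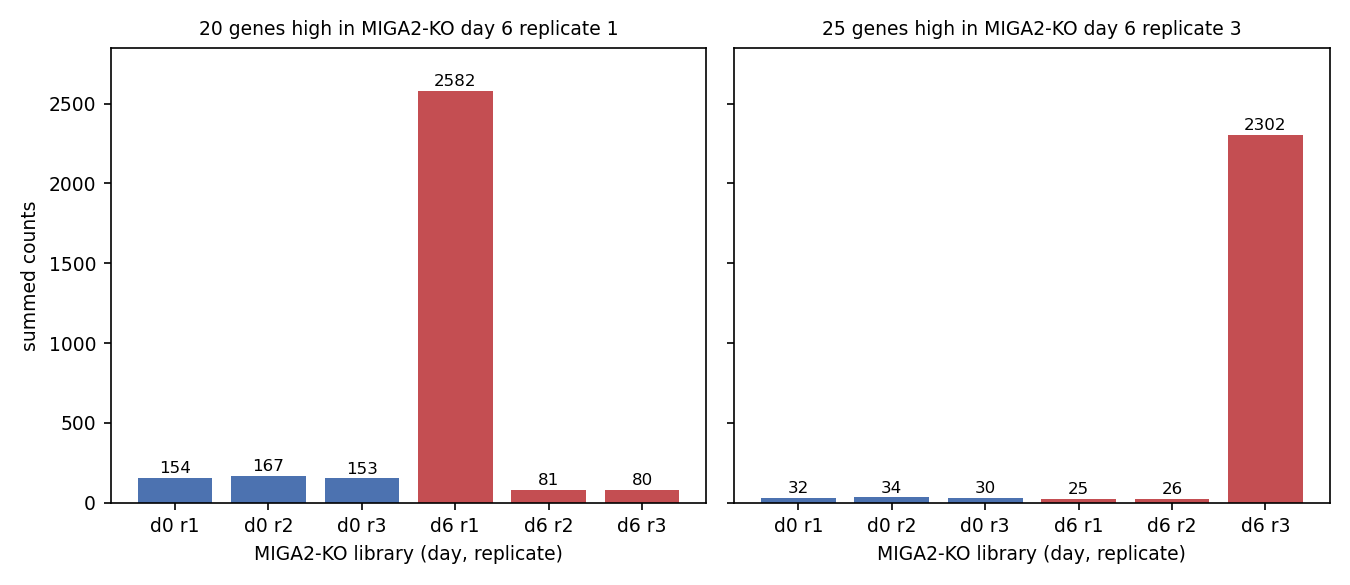
Summed counts in each of the 6 MIGA2-KO libraries (d0, day 0; d6, day 6; r, replicate) of the 20 genes that stood out in day 6 replicate 1 (left) and the 25 that stood out in day 6 replicate 3 (right). Bars are raw counts of single libraries: 2582 in replicate 1 on the left and 2302 in replicate 3 on the right, with all other bars at 167 or fewer.

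Across the 12279 genes tested, 2862 were higher at day 6 (23.3%) and 2580 lower (21.0%), and the median log2 fold change was 0.018. At least 2-fold higher were 1235 genes (10.1%) and at least 2-fold lower 1086 (8.84%). Without replicate 1, 2504 of 12479 genes were higher (20.1%) and 2389 lower (19.1%). Of the genes called with all 3 libraries, 2409 of the 2862 higher and 2198 of the 2580 lower were called in the same direction without replicate 1. In 4111 genes (33.5%) the 3 libraries of day 6 lay above all 3 of day 0, and in 3956 (32.2%) below. The counts of gene lists below are to be read against these shares, and a list near them is described by its counts alone. A gene with 3 counts or fewer over day 0 reaches the minimum count for testing only through another group and could not have been called lower. In lists that hold such genes the number higher partly follows from that minimum. The change in MIGA2-KO cells minus the change in WT cells, tested in the same fit and called the difference from WT below, was above 0 in 1678 genes (13.7%) and below 0 in 1668 (13.6%), or 3346 in all. Replicates of the WT groups were less alike, and without WT day 0 replicate 1 the total was 5186. Without MIGA2-KO day 6 replicate 1 the difference was above 0 in 1793 genes (14.4%) and below 0 in 1858 (14.9%).

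The largest rises were in genes that were silent or nearly so at day 0. Adipoq, for the hormone adiponectin, was at 2031, 1482 and 1501 CPM at day 6, and its 3 counts at day 0 give a 21060-fold ratio (95% counting interval 7206 to 102100). Cfd, for the serine protease adipsin, had 0 counts at day 0 and was at least 13680-fold higher at day 6, at 1697, 816 and 752 CPM, taking 3 counts over the group of day 0 as a floor. Cidec, for a protein that fuses lipid droplets, had 0 counts at day 0 and was at least 2375-fold higher at day 6, at 268, 152 and 146 CPM. All 3 were high in each day 6 library. Other genes with 0 counts at day 0 were Retn, for the hormone resistin, at least 469-fold higher at day 6 (71.5, 21.1 and 19.7 CPM), and Slc2a4, for the insulin-responsive glucose transporter GLUT4, at least 533-fold higher (95.03, 17.1 and 15.9 CPM). G0s2, for the inhibitor of the triacylglycerol lipase ATGL, reached 105, 17.5 and 15.8 CPM, at least 576-fold higher. In Retn, Slc2a4 and G0s2 the first of these libraries, replicate 1, was well above the other 2. It was not in Folh1, for a glutamate carboxypeptidase, at 28.2, 41.1 and 46.6 CPM (at least 488-fold higher), nor in Ear1, for a secreted ribonuclease, at 21.04, 30.1 and 28.6 CPM (at least 336-fold higher). The intervals and floors cover counting error only.

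**Figure D2:**
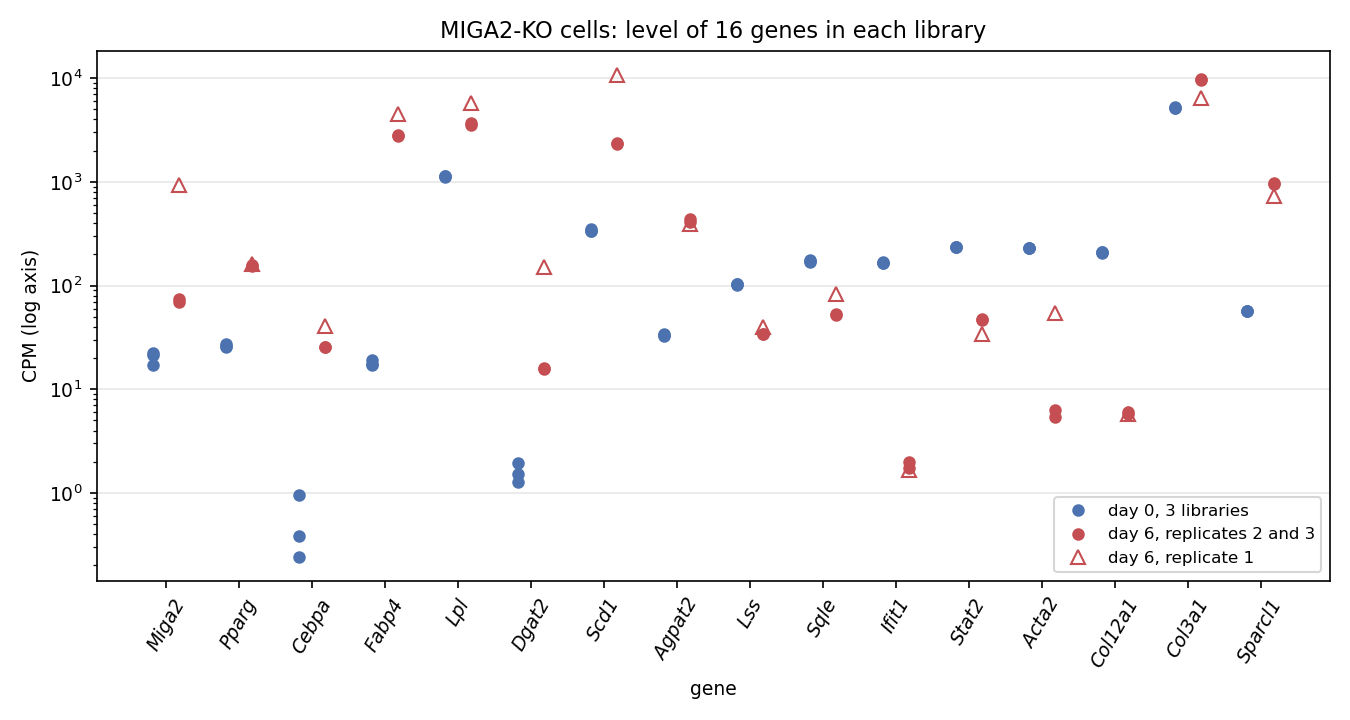
Levels of 16 genes in the 6 MIGA2-KO libraries, in CPM on a log axis, with blue circles for the 3 day 0 libraries, red circles for day 6 replicates 2 and 3 and an open triangle for day 6 replicate 1. In most of the genes the 3 day 6 libraries lie close together, while the triangle stands apart in Miga2, Dgat2, Scd1 and Acta2.

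The transcription factors of adipogenesis moved unevenly. Pparg, for the nuclear receptor that commits cells to the fat lineage, was at 25.8, 27.6 and 25.9 CPM at day 0 and 162, 154 and 158 CPM at day 6 (log2 fold change 2.58 ± 0.087, adjusted p = 2.36e-11), with the days well apart and the libraries of each day tight. Cebpa, which sustains Pparg, was at 0.963, 0.382 and 0.243 CPM at day 0 and 40.9, 25.7 and 25.3 CPM at day 6 (log2 fold change 5.83 ± 0.30, adjusted p = 1.25e-09), low in all day 0 libraries and highest in replicate 1. Cebpd, an early inducer, was at 21.4, 13.7 and 10.9 CPM at day 0 and 29.5, 80.6 and 78.5 CPM at day 6 (log2 fold change 2.04 ± 0.50, adjusted p = 0.0042), with replicate 1 the lowest of day 6. Cebpg, a C/EBP partner, also rose (1.38 ± 0.099). Zfp521, which holds progenitors back from the fat lineage, fell to 20.6, 22.1 and 23.2 CPM from 63.7, 72.4 and 73.5 CPM (log2 fold change -1.67 ± 0.13, adjusted p = 1.18e-07). Id4, an inhibitor of basic helix-loop-helix factors, also fell (5.698, 8.03 and 6.73 CPM at day 0 and 2.35, 0.989 and 0.697 CPM at day 6; log2 fold change -2.34 ± 0.34, adjusted p = 5.03e-05, -3.000 without replicate 1). Of 22 adipogenic regulators 11 were higher and 6 lower, with a median log2 fold change of 0.66 against 0.018 over all genes. Against WT the difference was below 0 for Pparg (-1.76 ± 0.12, adjusted p = 2.21e-07), which in WT went from 14.5 ± 1.14 CPM to 295 ± 0.885 CPM, and was not called for Cebpa (0.63 ± 0.41, adjusted p = 0.276).

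Of 13 Kruppel-like factors 2 were higher and 0 lower (3 higher without replicate 1), against 23.3% and 21.0% of all genes. Klf5, an activator of Pparg, was at 3.69, 4.51 and 4.54 CPM at day 0 and 29.99, 46.3 and 43.6 CPM at day 6 (log2 fold change 3.23 ± 0.18, adjusted p = 2.09e-09). Klf15, which acts on Slc2a4, had 0 counts at day 0 and was at least 49.2-fold higher at day 6, at 6.43, 2.47 and 2.87 CPM. Of 34 nuclear receptors and coregulators 13 were higher and 3 lower. Rxra, the partner of PPARG, was at 244, 240.2 and 258 CPM at day 0 and 461, 736 and 684 CPM at day 6 (log2 fold change 1.34 ± 0.14, adjusted p = 2.46e-06), above day 0 in each library and lowest in replicate 1. Nr1h3, for the oxysterol receptor LXR alpha, was at 11.5, 13.2 and 10.5 CPM at day 0 and 53.6, 42.1 and 37.6 CPM at day 6 (log2 fold change 1.92 ± 0.18, adjusted p = 6.60e-07), and its difference from WT was -3.04 ± 0.25. Thrb, for a thyroid hormone receptor, was at 0.562, 0.229 and 0.324 CPM at day 0 and 5.39, 8.32 and 8.53 CPM at day 6 (log2 fold change 4.29 ± 0.37, adjusted p = 2.52e-07), with a difference from WT of 3.53 ± 0.64 in the other direction. Nrip1, a corepressor of nuclear receptors, rose (2.63 ± 0.17).

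Genes of the fat cell's secretions rose almost throughout. Of 16 adipokines and secreted adipocyte proteins 15 were higher and 0 lower, with a median log2 fold change of 4.55 (3.901 without replicate 1, when 13 were called). Adipoq, Cfd, Retn, Sfrp5, Lep and Cmklr1 had 0 to 3 counts over day 0 and could not have been called lower. The count and the median thus partly follow from the minimum count for testing. Cmklr1, for the receptor of chemerin, is on the list though it is not secreted. Agt, for angiotensinogen, was at 8.35, 9.02 and 7.62 CPM at day 0 and 1351, 1361 and 1235 CPM at day 6 (log2 fold change 7.30 ± 0.26, adjusted p = 3.12e-11), alike in all 3 day 6 libraries. Rarres2, for the chemoattractant chemerin, was at 5.38, 6.73 and 5.596 CPM at day 0 and 732, 409 and 391 CPM at day 6 (log2 fold change 6.43 ± 0.33, adjusted p = 1.12e-09), highest in replicate 1. In bulk RNA, more cells that express such genes and more RNA per cell cannot be told apart. Among 21 acute phase and iron-binding proteins 12 rose and 5 fell. Serpina3n, for a protease inhibitor, was at 4.89, 5.505 and 4.87 CPM at day 0 and 60.9, 62.5 and 64.3 CPM at day 6 (log2 fold change 3.62 ± 0.11, adjusted p = 5.33e-12). Hp, for the haemoglobin-binding protein haptoglobin, was at 2.25, 1.99 and 2.11 CPM at day 0 and 122, 40.9 and 37.4 CPM at day 6 (log2 fold change 4.98 ± 0.46, adjusted p = 5.17e-07, 4.21 without replicate 1), and the difference from WT was among the 5 furthest below 0 (-6.45 ± 0.66, adjusted p = 8.11e-06).

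Genes that bring in, esterify and release fatty acids mostly rose. Cd36, for a fatty acid translocase, was at 0.802, 0.841 and 0.973 CPM at day 0 and 1108, 263 and 266 CPM at day 6 (log2 fold change 9.28 ± 0.62, adjusted p = 1.81e-08, 8.23 without replicate 1). Fabp4, for the fatty acid carrier of adipocytes, was at 17.7, 17.2 and 19.1 CPM at day 0 and 4488, 2845 and 2786 CPM at day 6 (log2 fold change 7.55 ± 0.28, adjusted p = 4.08e-11). Lpl, for lipoprotein lipase, was at 1108, 1140 and 1132 CPM at day 0 and 5705, 3574 and 3707 CPM at day 6 (log2 fold change 1.94 ± 0.16, adjusted p = 1.18e-07). All 3 were above every day 0 library and highest in replicate 1. Acsl1, which activates long-chain fatty acids, rose as well (5.24 ± 0.28), and Slc27a3, for an acyl-CoA synthetase of the same family of transporters, was the member of the list that fell (-1.50 ± 0.32). In all 9 of 14 uptake, binding and activation genes were higher and 1 lower (8 and 2 without replicate 1).

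For triacylglycerol synthesis 15 of 20 genes were higher and 1 lower (median 1.94). Of these genes Mogat1, Pck1 and Pnpla3 had 0 counts at day 0 and could not have been called lower. The count and the median thus partly follow from the minimum count for testing. Agpat2, the acyltransferase that makes phosphatidic acid, was at 32.4, 33.03 and 33.98 CPM at day 0 and 391, 443 and 410.3 CPM at day 6 (log2 fold change 3.65 ± 0.18, adjusted p = 6.00e-10). Dgat1, which adds the last acyl chain, was at 25.8, 23.1 and 25.4 CPM at day 0 and 331, 248 and 233 CPM at day 6 (log2 fold change 3.45 ± 0.17, adjusted p = 8.17e-10). Dgat2, the other enzyme of that step, was at 1.28, 1.53 and 1.95 CPM at day 0 and 153, 15.98 and 15.6 CPM at day 6 (log2 fold change 5.27 ± 0.81, adjusted p = 9.27e-05), so that replicate 1 held most of the group's level, and the value without replicate 1 was 3.31. Lpin1, a phosphatidate phosphatase, rose (2.51 ± 0.14), and its relative Lpin2 fell (-0.63 ± 0.18). Of the coat and formation proteins of lipid droplets 11 of 15 were higher, 7 of them without replicate 1. In this list Cidea, Cidec and G0s2 had 0 counts at day 0, so this count too partly follows from that minimum. Plin4, a droplet coat protein, was at 97.9, 97.3 and 102 CPM at day 0 and 413, 534 and 507 CPM at day 6 (log2 fold change 2.29 ± 0.10, adjusted p = 2.95e-10) and Fitm2, which partitions triacylglycerol into droplets, at 26.2, 24.2 and 24.5 CPM at day 0 and 273, 265 and 265 CPM at day 6 (log2 fold change 3.42 ± 0.095, adjusted p = 4.02e-12). Tmem159, for the droplet assembly factor LDAF1, was at 9.15, 8.87 and 12.1 CPM at day 0 and 9.65, 4.202 and 2.96 CPM at day 6 and fell (log2 fold change -0.84 ± 0.32, adjusted p = 0.0445), with replicate 1 at the level of day 0 (-1.48 without it). Its call was lost when any other of the 6 libraries was left out.

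Lipolysis genes rose in 15 of 16 cases, with a median log2 fold change of 4.22 (12 called without replicate 1). In this list G0s2 and Pnpla3 had 0 counts at day 0, Aqp7 had 1 and Ces1e had 2, so these could not have been called lower. The count and the median thus partly follow from the minimum count for testing. Pnpla2, for the lipase ATGL, was at 21.3, 19.3 and 20.6 CPM at day 0 and 473, 479 and 443 CPM at day 6 (log2 fold change 4.51 ± 0.21, adjusted p = 4.09e-10). Lipe, which encodes hormone-sensitive lipase, was at 8.35, 9.099 and 8.19 CPM at day 0 and 402, 493 and 468 CPM at day 6 (log2 fold change 5.73 ± 0.22, adjusted p = 7.88e-11). Both were alike in the 3 day 6 libraries. A list of adipocyte receptors, several of which govern lipolysis, gave 7 of 17 higher and 7 lower. Its members are G protein-coupled receptors except for the natriuretic peptide receptors Npr1, Npr2 and Npr3. Mc2r, for the corticotropin receptor, was at 0.481, 0.535 and 0.243 CPM at day 0 and 21.6, 16.6 and 17.9 CPM at day 6 (log2 fold change 5.44 ± 0.28, adjusted p = 1.43e-09), and Ffar2, for a receptor of short-chain fatty acids, had 0 counts at day 0 and was at least 133-fold higher at day 6, at 17.5, 8.57 and 5.75 CPM. Ptger4, for a prostaglandin E2 receptor, fell (10.99, 10.4 and 9.33 CPM at day 0 and 1.04, 1.401 and 2.09 CPM at day 6; log2 fold change -2.75 ± 0.27, adjusted p = 1.24e-06).

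The enzymes that make new fatty acids did not share this pattern. Of 17 genes of de novo lipogenesis 5 were higher and 4 lower, close to the shares of 23.3% and 21.0% among all genes, with a median of 0.12. Acly, which makes cytosolic acetyl-CoA, was at 287, 292 and 293 CPM at day 0 and 130.2, 115 and 122 CPM at day 6 (log2 fold change -1.25 ± 0.12, adjusted p = 1.24e-06). Fasn, for fatty acid synthase, was at 330, 329 and 308 CPM at day 0 and 385, 427 and 393 CPM at day 6 (log2 fold change 0.32 ± 0.12, adjusted p = 0.0471), a call lost when any 1 of the 6 libraries was left out (0.35, adjusted p = 0.0552 without replicate 1). Srebf1, the factor that drives this pathway, was at 45.3, 41.6 and 40.1 CPM at day 0 and 127, 146 and 134 CPM at day 6 (log2 fold change 1.68 ± 0.18, adjusted p = 3.40e-06). Thrsp, a lipogenic protein, had 1 count at day 0 and 73.7, 22 and 18.1 CPM at day 6, a 1427-fold ratio (95% counting interval 256 to 56390). The difference from WT was below 0 in 14 of the 17 genes and above 0 in 1, against 13.6% and 13.7% of all genes. For Fasn it was -2.79 ± 0.18, adjusted p = 1.54e-07, as WT cells went from 197 ± 26.6 CPM to 1693 ± 276 CPM. For Acly it was -1.40 ± 0.17, adjusted p = 4.65e-05.

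Of 19 desaturases and elongases 6 were higher and 5 lower, also near the shares of 23.3% and 21.0% among all genes. Scd1, which makes monounsaturated fatty acids, was at 338, 336 and 354 CPM at day 0 and 10780, 2345 and 2369 CPM at day 6 (log2 fold change 3.92 ± 0.47, adjusted p = 7.62e-06), with replicate 1 several times above the other pair (2.78 without it). Its relative Scd2 was at 1134, 1147 and 1139 CPM at day 0 and 2461, 1024 and 1033 CPM at day 6 and was not called (log2 fold change 0.40 ± 0.26, adjusted p = 0.227). Hacd2, a dehydratase of fatty acid elongation, rose (71.4, 75.2 and 71.5 CPM at day 0 and 378, 329 and 339.6 CPM at day 6; log2 fold change 2.26 ± 0.089, adjusted p = 8.79e-11). Hacd4, of the same family, fell (95.98, 102 and 99.2 CPM at day 0 and 18.5, 27.9 and 29.8 CPM at day 6; log2 fold change -1.96 ± 0.19, adjusted p = 7.20e-07).

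Cholesterol genes fell in MIGA2-KO cells and not, as a list, in WT cells. Of 23 genes of cholesterol synthesis and uptake 0 were higher and 19 lower in MIGA2-KO cells, with a median log2 fold change of -1.19 (20 lower and -1.32 without replicate 1). In WT cells 11 were higher and 3 lower. Lss, which closes the sterol ring, was at 104, 102 and 103 CPM at day 0 and 40.2, 34.1 and 34.1 CPM at day 6 (log2 fold change -1.51 ± 0.12, adjusted p = 1.01e-07). Sqle, for squalene epoxidase, was at 178, 174 and 169 CPM at day 0 and 83.4, 51.6 and 53.2 CPM at day 6 (log2 fold change -1.47 ± 0.15, adjusted p = 1.33e-06). In both genes all day 6 libraries lay below all day 0 libraries. Srebf2, the factor that activates these genes, fell (-1.21 ± 0.12), and so did Scap, which escorts it (-1.17 ± 0.12). The difference from WT was below 0 in 19 of 23 genes, against 13.6% of all genes, and above 0 in 0. For Nsdhl, for a demethylating dehydrogenase of the pathway, it was -2.26 ± 0.14, adjusted p = 1.11e-07: WT cells went from 129 ± 9.96 CPM to 267 ± 30.6 CPM and MIGA2-KO cells from 146 ± 0.925 to 62.8 ± 2.29 CPM (mean ± SD, n = 3).

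Sterol-responsive promoters often carry a sterol regulatory element. Promoter sequences of 250 bases before the start were taken from RefSeq (GRCm38.p6) and searched on both strands for TCACNCCAC. The motif was found in 1 of the 16 list members with a promoter entry and in 346 of 32851 promoters (1.05%). The member was Hmgcs1, for the synthase that makes HMG-CoA, which was at 160.3, 153 and 157 CPM at day 0 and 119, 112 and 117 CPM at day 6 and fell (log2 fold change -0.43 ± 0.15, adjusted p = 0.0301), a call lost when any 1 of the 6 libraries was left out (-0.45, adjusted p = 0.0509 without replicate 1). The match lies 137 bases before the start, in capitals below, in chr13:119690164-119690272 on the forward strand, and it is shown because it is the only match in the list. It is a match of letters and not a measured site, and the gene was named after the search.
Hmgcs1: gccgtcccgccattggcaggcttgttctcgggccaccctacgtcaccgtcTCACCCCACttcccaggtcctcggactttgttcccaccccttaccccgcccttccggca

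Of 15 cholesterol efflux and oxysterol genes 7 rose and 3 fell. Abcg1, a sterol exporter, was at 7.54, 7.65 and 8.11 CPM at day 0 and 53.9, 42.1 and 39.7 CPM at day 6 (log2 fold change 2.54 ± 0.14, adjusted p = 2.78e-09), Scarb1, for the receptor of high-density lipoprotein, rose (2.18 ± 0.20), and Pltp, a phospholipid transfer protein, fell (-1.29 ± 0.18). Ceramide and sphingolipid genes rose in 11 of 29 and fell in 3 (6 and 3 without replicate 1). Ormdl3, a brake on ceramide synthesis, rose (1.19 ± 0.14), as did the ceramide synthase Cers4 (1.24 ± 0.12), whose difference from WT was -2.72 ± 0.17.

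**Figure D3:**
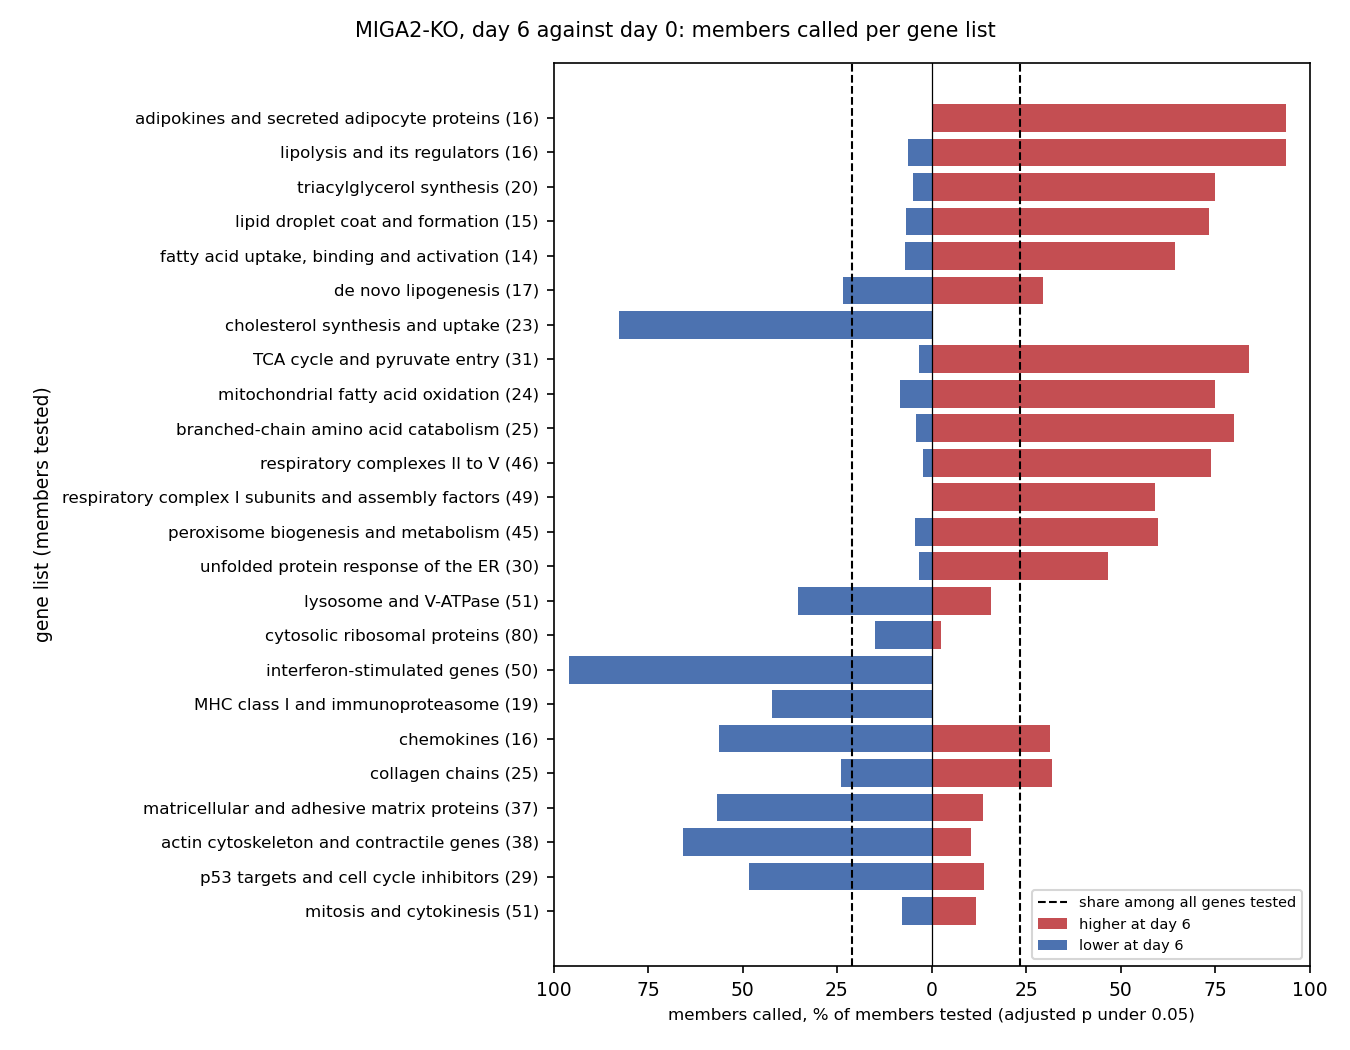
Share of the tested members of 24 of the 70 lists that were higher (red, to the right) or lower (blue, to the left) at day 6 than at day 0 in MIGA2-KO cells, in percent, with the number tested in brackets. Dashed lines mark the shares among all 12279 genes, 23.3% higher and 21.0% lower. Of the lists drawn, interferon-stimulated genes (48 of 50 lower) and cholesterol genes (19 of 23 lower) reach furthest left, adipokines (15 of 16 higher) and lipolysis genes (15 of 16 higher) furthest right. Some genes, among them adipokine, lipolysis, triacylglycerol synthesis and lipid droplet genes, had so few counts at day 0 that they could not have been called lower.

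Mitochondrial genes rose broadly but by modest amounts. Of 31 TCA cycle and pyruvate entry genes 26 were higher and 1 lower, with a median of 0.84. Pcx, for the pyruvate carboxylase that feeds oxaloacetate, was at 105, 111 and 108 CPM at day 0 and 740, 866 and 793 CPM at day 6 (log2 fold change 2.89 ± 0.13, adjusted p = 2.27e-10). Idh3a, a subunit of isocitrate dehydrogenase, was at 40.5, 42.7 and 43.8 CPM at day 0 and 202, 227 and 246 CPM at day 6 (log2 fold change 2.41 ± 0.10, adjusted p = 2.16e-10). Pdk3, for a kinase that shuts pyruvate dehydrogenase, was the member that fell (-0.79 ± 0.12). Fatty acid oxidation rose in 18 of 24 genes. Acadm, the gene of medium-chain acyl-CoA dehydrogenase, was at 43.5, 41.6 and 46.5 CPM at day 0 and 257, 242 and 237 CPM at day 6 (log2 fold change 2.48 ± 0.087, adjusted p = 2.88e-11), with no overlap between days. Cpt2, the inner-membrane carnitine transferase, rose (2.08 ± 0.14). The 2 members that fell were Cpt1a, the outer-membrane form (-1.06 ± 0.17), and Cpt1c, its brain-type relative (-2.01 ± 0.16).

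Branched-chain amino acid catabolism rose in 20 of 25 genes. Aldh6a1, a dehydrogenase of valine breakdown, was at 57.9, 57.7 and 59.8 CPM at day 0 and 454, 464 and 496 CPM at day 6 (log2 fold change 3.01 ± 0.24, adjusted p = 1.04e-07). Bcat1, the cytosolic transaminase, was the member that fell, at 19.3, 19.6 and 20.9 CPM at day 0 and 8.78, 0.906 and 1.74 CPM at day 6 (log2 fold change -2.39 ± 0.46, adjusted p = 0.000676, -3.91 without replicate 1). Respiratory complex I genes were higher in 29 of 49 and lower in 0 (median 0.60), and genes of complexes II to V in 34 of 46. Ndufs1, the largest subunit of complex I, was at 64.7, 58.8 and 63.7 CPM at day 0 and 161, 134 and 146 CPM at day 6 (log2 fold change 1.24 ± 0.11, adjusted p = 2.95e-07). Cycs, for cytochrome c, was at 14.7, 14.2 and 13.2 CPM at day 0 and 65.99, 40.5 and 41.1 CPM at day 6 (log2 fold change 1.81 ± 0.18, adjusted p = 9.01e-07). Cox8b, for a subunit of cytochrome oxidase found in brown fat and muscle, had 0 counts at day 0 and was at least 162-fold higher at day 6, at 30.3, 4.04 and 4.62 CPM, with most of it in replicate 1. Of 13 mitochondrially encoded mRNAs 8 were tested and 5 rose (3 without replicate 1), and mt-Nd1, for a complex I subunit, was at 7978, 8188 and 7900 CPM at day 0 and 20450, 20420 and 19510 CPM at day 6 (log2 fold change 1.33 ± 0.13, adjusted p = 8.59e-07).

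For each of these lists the difference from WT was below 0 in more members than the 13.6% of all genes. The count was 25 of 31 for the TCA cycle, 20 of 24 for fatty acid oxidation and 21 of 25 for branched-chain amino acids. It was 26 of 49 for complex I and 29 of 46 for complexes II to V. Acadm, which in WT went from 40.98 ± 1.63 CPM to 766 ± 25.1 CPM, had a difference of -1.74 ± 0.12, adjusted p = 2.21e-07. The counts without replicate 1 were 25, 20, 21, 26 and 31 in the same order.

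Mitochondrial upkeep rose less evenly. Of 50 genes for chaperones, proteases, import and cristae 26 were higher and 0 lower. Hspd1, for the matrix chaperonin HSP60, was at 259, 256 and 255 CPM at day 0 and 629.5, 519 and 529 CPM at day 6 (log2 fold change 1.12 ± 0.10, adjusted p = 5.54e-07). Mitochondrial ribosomal proteins rose in 35 of 78 (24 without replicate 1), with Mrpl12 at 38.1, 35.9 and 34.9 CPM at day 0 and 116, 112 and 108 CPM at day 6 (log2 fold change 1.63 ± 0.24, adjusted p = 7.53e-05). Among the carriers of the inner membrane 20 of 39 rose, among them Slc25a10, the dicarboxylate carrier, at 21.99, 21.03 and 21.98 CPM at day 0 and 167, 217 and 198 CPM at day 6 (log2 fold change 3.16 ± 0.23, adjusted p = 3.62e-08). Of 33 genes of fusion, fission and organelle contacts, the group to which Miga2 belongs, 9 were higher and 3 lower (6 and 2 without replicate 1), against 23.3% and 21.0% of all genes. Mfn2, a fusion GTPase, rose (0.44 ± 0.096), as did Rmdn3, a tether to the endoplasmic reticulum (0.85 ± 0.11), and Mospd2, an endoplasmic reticulum contact protein, fell (-0.85 ± 0.26, not called without MIGA2-KO day 6 replicate 2).

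Peroxisomal genes rose in 27 of 45 cases and fell in 2. Pex13, part of the import pore, was at 31.1, 31.9 and 30.2 CPM at day 0 and 106, 107 and 112 CPM at day 6 (log2 fold change 1.80 ± 0.092, adjusted p = 1.06e-09), Cat, for catalase, at 81.6, 82.6 and 86.7 CPM at day 0 and 328, 446 and 439.5 CPM at day 6 (log2 fold change 2.27 ± 0.14, adjusted p = 5.96e-09). Decr2, a reductase of unsaturated fatty acid breakdown, fell (-0.50 ± 0.12). Of 24 PGC-1 and thermogenic genes 12 had enough counts to be tested, and 11 of these were higher (8 without replicate 1). Some, such as Cox8b (0 counts over day 0 and 450 over day 6) and Ucp3 (1 and 55), could not have been called lower. The count of higher genes thus partly follows from the minimum count for testing. Kcnk3, for a potassium channel that restrains heat production, was at 4.49, 5.58 and 4.46 CPM at day 0 and 62.1, 47.5 and 38.7 CPM at day 6 (log2 fold change 3.35 ± 0.23, adjusted p = 2.31e-08), and the coactivator Ppargc1b at 0.562, 0.765 and 0.568 CPM at day 0 and 4.43, 4.45 and 4.96 CPM at day 6 (log2 fold change 2.85 ± 0.35, adjusted p = 1.11e-05).

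Of 29 genes of glycolysis and the pentose phosphate pathway 11 were higher and 7 lower, against 23.3% and 21.0% of all genes. Hk2, the insulin-induced hexokinase, was at 41.4, 37.7 and 41.1 CPM at day 0 and 86.8, 64.9 and 63.3 CPM at day 6 (log2 fold change 0.84 ± 0.13, adjusted p = 0.0001). Pkm, for pyruvate kinase, was at 1172, 1177 and 1178 CPM at day 0 and 729, 707 and 682 CPM at day 6 (log2 fold change -0.74 ± 0.13, adjusted p = 0.000431). The difference from WT was below 0 in 19 of the 29 genes and above 0 in 2, against 13.6% and 13.7% of all genes. For Hk2 it was -1.88 ± 0.18, adjusted p = 5.44e-06. Among insulin signalling genes 9 of 25 rose and 5 fell. Pik3r1, the regulatory subunit of PI3 kinase, was at 109, 111 and 120.2 CPM at day 0 and 353, 448 and 447 CPM at day 6 (log2 fold change 1.88 ± 0.17, adjusted p = 5.69e-07). Grb14, an adaptor that inhibits the insulin receptor, fell (48.6, 50.4 and 51.3 CPM at day 0 and 4.87, 5.44 and 5.66 CPM at day 6; log2 fold change -3.23 ± 0.14, adjusted p = 2.01e-10). Of 24 glycogen genes 12 were higher and 5 lower, and their summed level was 2013 to 2063 CPM at day 0 and 1848 to 2014 CPM at day 6. Most of the day 0 sum was Gaa, for a lysosomal glucosidase, which fell. It was at 1212, 1180 and 1123 CPM at day 0 and 437, 742 and 646 CPM at day 6 (log2 fold change -0.945), so the sum does not describe the other members. Ppp1r3c, which targets phosphatase to glycogen, rose less than in WT (log2 fold change 1.36 ± 0.087, difference -2.37 ± 0.12).

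In amino acid metabolism, Glul, for glutamine synthetase, was at 29.3, 29.3 and 31.6 CPM at day 0 and 910.1, 1284 and 1257 CPM at day 6 (log2 fold change 5.26 ± 0.15, adjusted p = 4.02e-12). Gpt, for alanine transaminase, was at 1.77, 2.37 and 2.03 CPM at day 0 and 44.95, 37.8 and 39.5 CPM at day 6 (log2 fold change 4.30 ± 0.31, adjusted p = 4.46e-08). Aldh1l2, a mitochondrial folate dehydrogenase, fell (-1.63 ± 0.28). Of 34 genes for glutamine, proline, serine and one-carbon metabolism 11 were higher and 9 lower (7 and 10 without replicate 1). Among all genes the shares were 23.3% and 21.0%. Of 26 amino acid transporters 8 were higher and 6 lower (7 and 10 without replicate 1), near the shares of 23.3% and 21.0% among all genes. Slc1a5, which takes up glutamine, was at 120.2, 115 and 119 CPM at day 0 and 425, 410.1 and 388 CPM at day 6 (log2 fold change 1.79 ± 0.11, adjusted p = 5.67e-09), with a difference from WT of -2.83 ± 0.15, and Slc38a4, a system A transporter, fell (25.3, 28.1 and 24.6 CPM at day 0 and 3.91, 1.65 and 2.26 CPM at day 6; log2 fold change -3.32 ± 0.25, adjusted p = 7.80e-08). Targets of the integrated stress response were called higher in 7 and lower in 4 of 30 with all libraries, and in 6 and 10 without replicate 1. The shares among all genes were 23.3% and 21.0% with all libraries, and 20.1% and 19.1% without replicate 1. The unfolded protein response of the endoplasmic reticulum rose in 14 of 30 (10 without replicate 1), with the factor Xbp1 at 60.4, 56.6 and 60.3 CPM at day 0 and 256, 196 and 211 CPM at day 6 (log2 fold change 1.90 ± 0.11, adjusted p = 4.86e-09).

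Of 22 genes of growth hormone, STAT and SOCS signalling 9 were higher and 7 lower, of 12 genes for IGF1 and IGF binding proteins 4 and 4, and of 11 imprinted growth genes 4 and 2, against 23.3% and 21.0% of all genes. Socs2, for an inhibitor of growth hormone signalling, was at 1.28, 0.612 and 1.14 CPM at day 0 and 39.8, 30.7 and 30.8 CPM at day 6 (log2 fold change 5.06 ± 0.22, adjusted p = 2.03e-10), and its difference from WT was 4.03 ± 0.27, adjusted p = 2.21e-07. Cish, of the same family, rose (2.65 ± 0.20, difference 1.75 ± 0.26), and so did Ghr, for the growth hormone receptor (0.52 ± 0.13). Igfals, which stabilises circulating IGF complexes, had 2 counts at day 0 and 6.52, 10.1 and 8.27 CPM at day 6, a 157-fold ratio (95% counting interval 43.2 to 1306). Igf2, a growth factor from an imprinted locus, was at 2.97, 2.91 and 3.65 CPM at day 0 and 17.3, 21.5 and 20.5 CPM at day 6 (log2 fold change 2.64 ± 0.16, adjusted p = 6.42e-09). Peg10, another imprinted gene, was at 54.3, 55.7 and 53.4 CPM at day 0 and 733, 406 and 399 CPM at day 6 (log2 fold change 3.23 ± 0.31, adjusted p = 7.29e-07). Dlk1, an imprinted gene that marks preadipocytes, was at 1056, 868 and 802 CPM at day 0 and 147, 209 and 202 CPM at day 6 (log2 fold change -2.29 ± 0.21, adjusted p = 4.61e-07). Of 33 genes of xenobiotic and carbonyl metabolism 22 rose, among them Aldh1a7, an aldehyde dehydrogenase, at 7.303, 7.04 and 7.54 CPM at day 0 and 169, 238 and 241 CPM at day 6 (log2 fold change 4.89 ± 0.16, adjusted p = 2.02e-11), whose difference from WT was -3.88 ± 0.23.

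Interferon-stimulated genes fell almost throughout. Of 50 tested, 48 were lower and 0 higher, with a median log2 fold change of -3.09, and 45 were at least 2-fold lower against 8.84% of all genes. The 2 not called, Ifi27 and the DNA-binding protein Ifi204, were named after their values were seen. These genes are switched on when STAT2, IRF9 and their partners bind the interferon-stimulated response element. Its core, GAAANNGAA, was searched for on both strands in the 250 bases before the start. It was found in 18 of the 37 list members with a RefSeq promoter entry, in 714 of 9486 tested genes with one (7.53%) and in 2342 of 32851 promoters (7.13%). A match is a description of the letters and not a measured site. The stretches of 3 genes among the largest falls are shown (GRCm38.p6, 5′ to 3′ on the gene's strand), with matches in capitals, which also mark the reverse complement TTCNNTTTC. They lie at chr19:34640730-34640863 (forward) for Ifit1, chr19:34583324-34583485 (forward) for Ifit3 and chr4:156200826-156200946 (reverse) for Isg15, and each holds 3 matches, overlapping in Ifit1 and Isg15.
Ifit1: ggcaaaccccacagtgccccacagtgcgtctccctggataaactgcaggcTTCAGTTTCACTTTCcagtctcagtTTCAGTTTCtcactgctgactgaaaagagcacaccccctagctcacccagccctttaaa
Ifit3: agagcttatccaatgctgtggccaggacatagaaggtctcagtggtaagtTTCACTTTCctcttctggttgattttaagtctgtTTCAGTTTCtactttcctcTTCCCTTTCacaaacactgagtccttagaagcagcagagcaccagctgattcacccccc
Isg15: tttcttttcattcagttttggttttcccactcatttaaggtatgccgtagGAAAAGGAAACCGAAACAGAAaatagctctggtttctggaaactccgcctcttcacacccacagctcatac

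Ifit1, for a protein that binds viral RNA, was at 164, 167 and 165 CPM at day 0 and 1.65, 1.98 and 1.74 CPM at day 6 (log2 fold change -6.52 ± 0.19, adjusted p = 4.02e-12). Ifit3, its partner, was at 219, 225 and 233 CPM at day 0 and 3.48, 3.71 and 4.27 CPM at day 6 (log2 fold change -5.88 ± 0.21, adjusted p = 3.12e-11). Isg15, for a ubiquitin-like modifier, was at 78.7, 76.9 and 80.2 CPM at day 0 and 2.43, 0.577 and 0.6096 CPM at day 6 (log2 fold change -6.02 ± 0.39, adjusted p = 1.35e-08). Each of the 3 genes with the printed promoters was lower in every day 6 library than in any of day 0, and Isg15 was least low in replicate 1 (-7.03 without it). Stat2 was at 236, 237 and 237 CPM at day 0 and 34.3, 47.95 and 46.9 CPM at day 6 (log2 fold change -2.46 ± 0.17, adjusted p = 2.61e-08). Usp18, which removes ISG15 and dampens the receptor, was at 40.9, 41.2 and 39.3 CPM at day 0 and 1.13, 1.24 and 1.39 CPM at day 6 (log2 fold change -5.004 ± 0.26, adjusted p = 1.35e-09). The list also fell in WT cells, with 44 lower and 3 higher. The difference from WT was above 0 in 6 and below 0 in 9 of 50, against 13.7% and 13.6% of all genes. It was 4.88 ± 0.56, adjusted p = 2.60e-05 for Ifit3b, which fell in both, and -3.51 ± 0.34, adjusted p = 4.84e-06 for Usp18.

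Antigen presentation genes fell in 8 of 19 and rose in 0. B2m, the light chain of MHC class I, was at 2552, 2523 and 2483 CPM at day 0 and 1142, 1056 and 1094 CPM at day 6 (log2 fold change -1.20 ± 0.11, adjusted p = 4.74e-07). Tap1, the peptide transporter, fell (-1.36 ± 0.12). Chemokines fell in 9 of 16 and rose in 5 (9 and 3 without replicate 1). Ccl2, which draws monocytes, was at 207, 195 and 207 CPM at day 0 and 39.6, 8.65 and 8.099 CPM at day 6 (log2 fold change -3.43 ± 0.44, adjusted p = 1.65e-05, -4.60 without replicate 1). Ccl8, of the same family, was at 44.1, 41.7 and 42.7 CPM at day 0 and 1.48, 1.98 and 2.87 CPM at day 6 (log2 fold change -4.34 ± 0.35, adjusted p = 1.15e-07). Ccl6 ran the other way, at 0.642, 0.841 and 0.892 CPM at day 0 and 138, 209.9 and 217 CPM at day 6 (log2 fold change 7.88 ± 0.23, adjusted p = 4.02e-12), with a difference from WT of 3.68 ± 0.30, adjusted p = 1.20e-06. The difference was above 0 in 9 of 16 chemokines and below 0 in 0, against 13.7% and 13.6% of all genes. Without replicate 1 the chemokine counts were 8 and 1. The difference was largest for Cxcl5, a neutrophil chemokine (4.21 ± 0.28, adjusted p = 2.08e-07). Complement components other than adipsin moved both ways: C3 was at 599.7, 620.2 and 635 CPM at day 0 and 3452, 4008 and 3879 CPM at day 6 (log2 fold change 2.61 ± 0.10, adjusted p = 9.66e-11) and C1ra, a protease of the first component, fell (-0.95 ± 0.12).

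Genes of the fibroblast's matrix and skeleton fell in part. Actin and contractile genes were lower in 25 of 38 and higher in 4 (median -0.83). Tpm1, a tropomyosin, was at 300.2, 296 and 287 CPM at day 0 and 68.2, 71.1 and 84.04 CPM at day 6 (log2 fold change -1.98 ± 0.10, adjusted p = 1.17e-09). Acta2, for smooth muscle actin, was at 229.5, 232 and 230.4 CPM at day 0 and 53.9, 5.44 and 6.27 CPM at day 6 (log2 fold change -3.40 ± 0.62, adjusted p = 0.000404), with replicate 1 the highest of day 6 (-5.30 without it). Lmod1, an actin nucleator of smooth muscle, rose (3.11 ± 0.21). Matricellular and adhesive proteins fell in 21 of 37. Fn1, for fibronectin, was at 9933, 10170 and 10240 CPM at day 0 and 2431, 2378 and 2352 CPM at day 6 (log2 fold change -2.08 ± 0.18, adjusted p = 3.57e-07), and Fbn1, for the microfibril protein fibrillin, fell as well (-3.10 ± 0.20). Spp1, for osteopontin, was at 502, 485 and 501 CPM at day 0 and 76.1, 9.89 and 10.7 CPM at day 6 (log2 fold change -3.95 ± 0.57, adjusted p = 4.93e-05, -5.59 without replicate 1). Sparcl1, a relative of the matricellular protein SPARC, rose, at 56.5, 57.2 and 56.6 CPM at day 0 and 736, 959.7 and 971 CPM at day 6 (log2 fold change 3.97 ± 0.14, adjusted p = 3.38e-11), and its difference from WT was 2.45 ± 0.18, adjusted p = 5.75e-07.

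Of 25 collagen chains 8 were higher and 6 lower (10 and 6 without replicate 1), against 23.3% and 21.0% of all genes. Col12a1, a fibril-associated chain, was at 204, 212 and 209.5 CPM at day 0 and 5.83, 5.77 and 6.096 CPM at day 6 (log2 fold change -5.14 ± 0.24, adjusted p = 4.20e-10), and Col8a1, a network-forming chain, fell as well (-5.23 ± 0.51, -6.87 without replicate 1). Col6a3, of the beaded microfibrils of fat tissue, rose, at 1744, 1789 and 1797 CPM at day 0 and 5509, 7664 and 7425 CPM at day 6 (log2 fold change 1.95 ± 0.18, adjusted p = 6.10e-07). Col3a1, a fibrillar chain, was at 5213, 5307 and 5219 CPM at day 0 and 6441, 9928 and 9671 CPM at day 6 (log2 fold change 0.73 ± 0.15, adjusted p = 0.00126), all day 6 libraries above day 0. Col1a2, the type I chain, was at 11140, 11230 and 10450 CPM at day 0 and 7354, 10880 and 10420 CPM at day 6 and was not called (log2 fold change -0.20 ± 0.14, adjusted p = 0.281). Both differed from WT, Col3a1 by 1.84 ± 0.22, adjusted p = 2.96e-05 and Col1a2 by 1.91 ± 0.20, adjusted p = 1.06e-05, and in WT Col3a1 went from 6979 ± 934 CPM to 3236 ± 317 CPM. Among proteoglycans the difference was above 0 in 10 and below 0 in 2 of 21, against 13.7% and 13.6% of all genes. Lum, for lumican, was at 0.562, 0.841 and 1.14 CPM at day 0 and 17.6, 18.1 and 19.4 CPM at day 6 (log2 fold change 4.43 ± 0.25, adjusted p = 2.73e-09), with the largest difference above 0 of the series' genes that met the naming rule (5.49 ± 0.31, adjusted p = 6.87e-08). Vcan, for versican, rose (1.21 ± 0.25), and Sdc3, a syndecan, fell (-1.38 ± 0.10).

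Metalloproteinases and their inhibitors fell in 12 and rose in 9 of 32. Mmp3, for stromelysin, was at 287, 276 and 279 CPM at day 0 and 30.2, 34.7 and 36.9 CPM at day 6 (log2 fold change -3.05 ± 0.13, adjusted p = 2.58e-10). Timp4, an inhibitor, was at 0.0803, 0.306 and 0.243 CPM at day 0 and 15.9, 18.1 and 19.3 CPM at day 6 (log2 fold change 6.34 ± 0.29, adjusted p = 3.82e-10). Of laminins and integrins 8 rose and 9 fell. Itga11, for a collagen-binding integrin, fell to 0.869, 0.494 and 0.697 CPM from 30.7, 32.7 and 32.9 CPM (log2 fold change -5.54 ± 0.37, adjusted p = 1.59e-08). Itga7, for a laminin-binding one, rose (1.204, 1.68 and 1.38 CPM at day 0 and 28.5, 31.2 and 33.96 CPM at day 6; log2 fold change 4.45 ± 0.20, adjusted p = 3.93e-10). Of 19 preadipocyte and progenitor markers 9 fell and 3 rose. Pdgfrb, for a receptor of platelet-derived growth factor, was at 625, 634 and 647 CPM at day 0 and 235, 253 and 253 CPM at day 6 (log2 fold change -1.36 ± 0.09, adjusted p = 1.67e-08). Ly6a, for the progenitor antigen SCA1, fell (-2.27 ± 0.17). Cd34, a progenitor antigen, rose from a low level (0.883, 0.229 and 0.406 CPM at day 0 and 1.04, 1.65 and 1.74 CPM at day 6; log2 fold change 1.54 ± 0.43, adjusted p = 0.00932), a call lost without MIGA2-KO day 0 replicate 2.

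**Figure D4:**
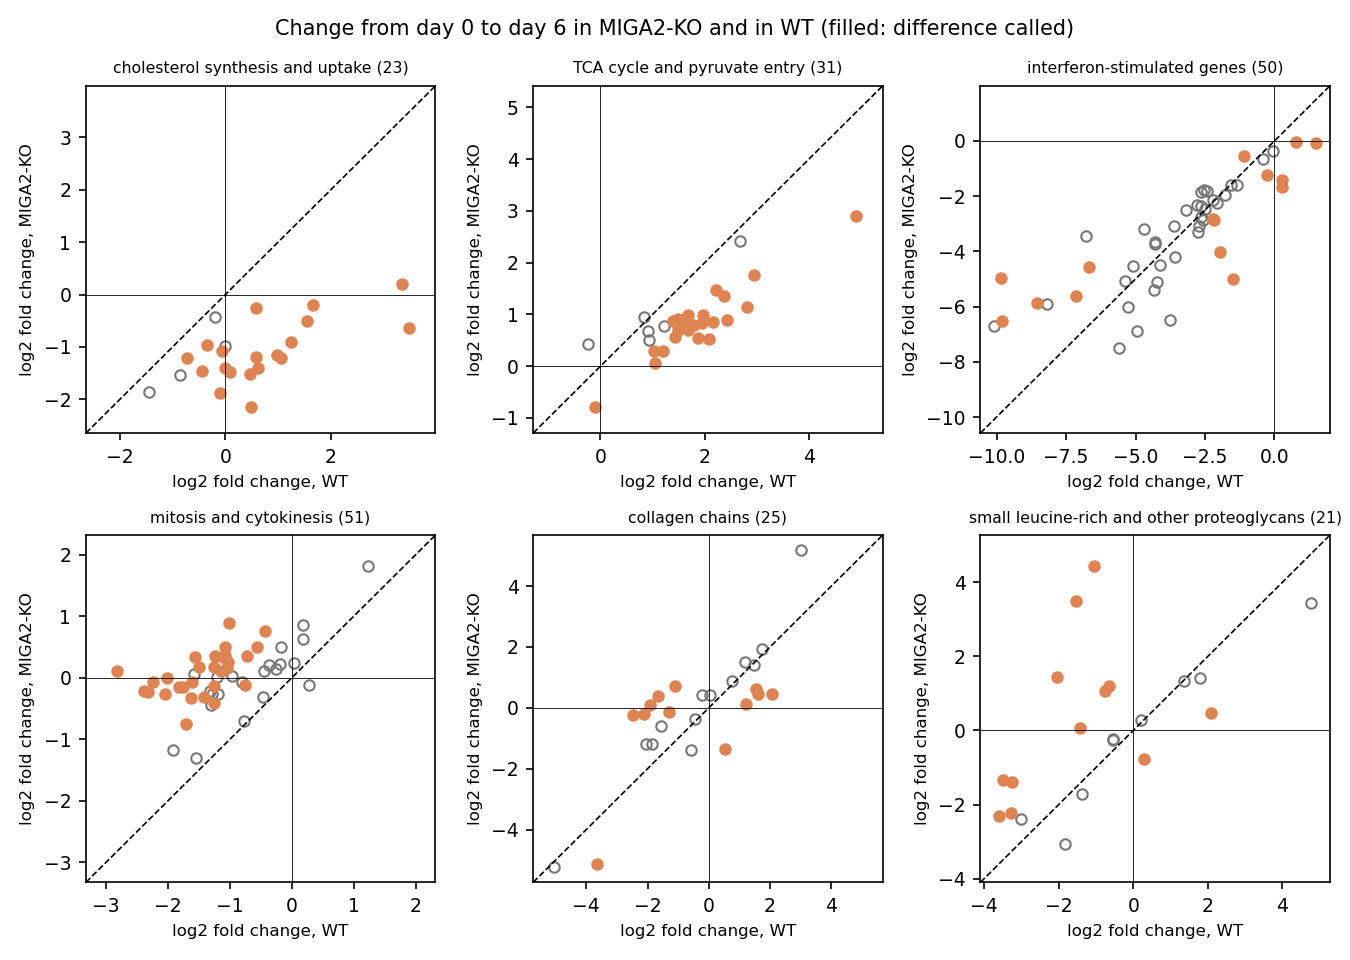
Log2 fold change from day 0 to day 6 in MIGA2-KO (vertical axis) and in WT cells (horizontal axis) for the tested members of 6 lists, each point a gene, filled where the difference between the 2 changes was called. The dashed line marks equal change: all 23 cholesterol genes and most TCA cycle genes lie below it, and most genes of mitosis lie above it.

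Of 51 genes of mitosis and cytokinesis 6 were higher and 4 lower, fewer than the shares among all genes, with a median of 0.03 (5 and 1 without replicate 1). Their summed level was 286 to 292 CPM at day 0 and 284 to 303 CPM at day 6, with overlap between days. Ccna2, for the cyclin of S phase and G2, was at 4.41, 3.59 and 4.298 CPM at day 0 and 6.69, 8.16 and 7.92 CPM at day 6 (log2 fold change 0.89 ± 0.19, adjusted p = 0.00127). Nusap1, a spindle protein, rose (1.82 ± 0.30). Foxm1, a factor that drives mitotic genes, fell (8.99, 9.02 and 11.8 CPM at day 0 and 3.56, 4.37 and 4.09 CPM at day 6; log2 fold change -1.31 ± 0.25, adjusted p = 0.00063). In WT cells 39 of the list were lower and 2 higher. The difference from WT was above 0 in 29 of 51 genes, against 13.7% of all genes, and below 0 in 0, and for Ccna2 it was 1.91 ± 0.26, adjusted p = 0.0001. DNA replication genes were higher in 15 and lower in 8 of 51, with a median log2 fold change of 0.013. Their summed level, at 2038 to 2105 CPM at day 0 and 1396 to 1576 CPM at day 6, was lower at day 6 without overlap. The sum is weighted to the more abundant members and does not describe the list as a whole. Tk1, for thymidine kinase, was at 2.65, 2.22 and 2.51 CPM at day 0 and 8.43, 11.04 and 10.01 CPM at day 6 (log2 fold change 1.996 ± 0.25, adjusted p = 1.12e-05). Targets of p53 and cell cycle inhibitors fell in 14 of 29: Ccng1, for cyclin G1, was at 695, 676 and 662 CPM at day 0 and 176, 212 and 223 CPM at day 6 (log2 fold change -1.73 ± 0.14, adjusted p = 1.55e-07), while Sesn1, for a stress-induced inhibitor of growth signalling, rose (2.11 ± 0.14).

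Cytosolic ribosomal proteins were lower in 12 and higher in 2 of 80 (7 and 2 without replicate 1), under the shares among all genes. In 48 of them, however, the 3 day 6 libraries lay below all 3 of day 0, against 32.2% of all genes, and their summed level was 50780 to 52290 CPM at day 0 and 42070 to 44560 CPM at day 6. Rps19, of the small subunit, was at 369.6, 384 and 412 CPM at day 0 and 192, 204 and 191 CPM at day 6 (log2 fold change -0.99 ± 0.21, adjusted p = 0.00127). Many ribosomal protein genes have near-identical copies, so their counts depend on how such reads were assigned. Of 42 proteasome subunits 11 were higher, near the 23.3% of all genes, and 0 lower. Lysosomal genes fell in 18 and rose in 8 of 51, and Psap, for the precursor of the saposins, rose (0.50 ± 0.13).

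Markers of other cell types gave the following levels. The leukocyte gene Ptprc, the macrophage gene Adgre1 and the epithelial genes Cdh1 and Epcam had 0 counts in all 6 libraries. Summed over the list, macrophage markers were at 96.2 to 98.8 CPM at day 0 and 34.5 to 45.7 CPM at day 6. Most of the sum at day 0 was Lyz2, for lysozyme, which fell (77.9, 74.5 and 77.6 CPM at day 0 and 14.3, 15.4 and 20.4 CPM at day 6, log2 fold change -2.20 ± 0.18, adjusted p = 1.18e-07). Endothelial markers were at 19.4 to 20.4 CPM at day 0 and 4.61 to 5.75 CPM at day 6. Of 12 such markers 3 were tested. Pecam1, Cdh5, Kdr and Tek had 6 counts or fewer in each library, so the sum was mostly that of other members. Smooth muscle and pericyte markers were at 271 to 275 CPM at day 0 and 40.95 to 149.5 CPM at day 6. The upper end was replicate 1, with the others at 42.4 CPM or less. Most of the smooth muscle and pericyte sum at day 0 was Acta2, so its fall does not describe the other members. Osteoblast markers were at 548 to 566 CPM at day 0 and 45.7 to 118 CPM at day 6, again with replicate 1 at the upper end and the others at 46.8 CPM or less, with Bglap at 0 counts in 5 of the 6 libraries and Runx2, the factor of the bone lineage, lower (-0.57 ± 0.17). Most of the osteoblast sum at day 0 was Spp1, so the fall of the sum is mainly that of Spp1. Alpl, for alkaline phosphatase, had 0 counts at day 0 and was at least 31.3-fold higher at day 6, at 4.87, 1.32 and 1.31 CPM. Chondrocyte markers were at 42.98 to 55.8 CPM at day 0 and 52.1 to 69.95 CPM at day 6, with Acan and Matn1 at 0 counts throughout. Most of the sum at both days was Sox9, the factor of that lineage, which was higher (0.54 ± 0.14, difference from WT 1.89 ± 0.20). The sum thus does not describe the other members. Of 12 chondrocyte markers 4 were tested, with 2 higher and 1 lower (log2 fold changes from -3.080 to 1.571). Skeletal muscle markers were at 11.3 to 11.6 CPM at day 0 and 16.6 to 88.9 CPM at day 6, and the upper end was the library labelled MIGA2-KO day 6 replicate 3. The calls of Acta1, for skeletal actin (0, 0.229 and 0.0811 CPM at day 0 and 0.435, 0.412 and 22.6 CPM at day 6), and of Tnnt3, for a troponin (0.481, 0.153 and 0.243 CPM at day 0 and 0.0869, 0 and 11.8 CPM at day 6), rest on that library. The part of these cells or libraries in the results above was not tested.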

How the data were processed

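The files hold whole-number read counts per gene, deposited by the authors without normalization, 1 column per library and 25700 Ensembl genes, of which 25664 were given names and GRCm38 coordinates from the reference annotation. Per the submitters' processing notes the tools included bcl2fastq 2.19, Trimmomatic, STAR 2.5.4b and featureCounts with genome build GRCm38.p5, and per the labels' protocols libraries were stranded TruSeq. The settings of counting were not given in the sources used here.

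The counts were tested with edgeR 4.0.16 (R 4.3.3) quasi-likelihood on all 15 libraries, 1 term per group of 3, TMM scaling, a minimum count of 10 (total 15) and Benjamini-Hochberg adjustment, called under 0.05, two-sided. The difference from WT is the MIGA2-KO change minus the WT change. The procedure was tested on simulated data. Shared spread was 16% (10.5% with the 6 MIGA2-KO libraries alone), so p-values here lean on less even groups. Mitochondrially encoded mRNAs took 4.69% to 4.77% of counts at day 0 and 7.73% to 8.78% at day 6. CPM scales with transcript length, so levels are not compared between genes.

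Genes were named by rule: Miga2 and Miga1, the 10 largest changes each way with at least 20 CPM in the higher group and no overlap of libraries, and, in each of 70 lists, up to 4 members of smallest adjusted p, the largest called change against the list's direction and the highest mean CPM. For differences from WT the 5 largest each way were named, and for day 6 replicate 1 the 6 genes furthest from its group each way. Members and lists were chosen with earlier results of these data known. Alternatives were RLE scaling, other count filters, DESeq2 1.42.0, a replicate block, fewer libraries and a 2-fold threshold. Some genes that the rule chose are not reported here. MIGA2-GFP libraries entered only the estimate of spread.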

Additional observations from a re-analysis of the deposited data

Results flagged for a closer look

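For the genes below the change from day 0 to day 6 differed between MIGA2-KO and WT cells by edgeR's test of the difference itself (adjusted p under 0.05). Values are the log2 change in MIGA2-KO minus that in WT, ± SE. No explanation was tested.

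Below 0, among genes of lipid and sugar metabolism, were Pparg (-1.76 ± 0.12), Nr1h3 (-3.04 ± 0.25), Fasn (-2.79 ± 0.18), Acly (-1.40 ± 0.17), Nsdhl (-2.26 ± 0.14), Acadm (-1.74 ± 0.12), Cers4 (-2.72 ± 0.17), Hk2 (-1.88 ± 0.18) and Ppp1r3c (-2.37 ± 0.12). Also below 0 were the glutamine transporter Slc1a5 (-2.83 ± 0.15), the aldehyde dehydrogenase Aldh1a7 (-3.88 ± 0.23), Hp (-6.45 ± 0.66) and Usp18 (-3.51 ± 0.34). Among the 5 furthest below 0 under the naming rule were Ifi208, an interferon-inducible gene (-7.91 ± 1.07), and Aldh1l1, a folate dehydrogenase (-7.15 ± 0.82). Ifi208 was at 0.161, 0.382 and 0.487 CPM at day 0 and 0, 0.494 and 0.6096 CPM at day 6, near 0 in MIGA2-KO cells at both days, and in WT cells it went from 0.0861 ± 0.0539 CPM to 23.03 ± 6.45 CPM. Retnla, for a resistin-like secreted protein, is also among the 5, but it had 0 counts in WT at day 0, so a fitted difference would depend on the fit's prior count: it was at 0.0803, 0 and 0 CPM at day 0 and 0.261, 0.3296 and 0.261 CPM at day 6, and in WT cells at 25.4 ± 5.18 CPM at day 6. Aldh1l1 was at 0.722, 0.535 and 0.649 CPM at day 0 and 3.39, 0.906 and 0.6096 CPM at day 6 and was not called over time in MIGA2-KO cells (log2 fold change 1.35 ± 0.54, adjusted p = 0.0541), and in WT cells it went from 0.6196 ± 0.194 CPM to 233 ± 38.7 CPM.

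Above 0 were the matrix genes Lum (5.49 ± 0.31), Col3a1 (1.84 ± 0.22), Col1a2 (1.91 ± 0.20), Sparcl1 (2.45 ± 0.18), Tnr, for tenascin R (4.45 ± 0.43), and Spon2, for a spondin (4.32 ± 0.33). Spon2 was at 19.2, 22.02 and 22.1 CPM at day 0 and 87.98, 152 and 149.8 CPM at day 6 (log2 fold change 2.62 ± 0.23, adjusted p = 3.81e-07), while in WT cells it went from 38.1 ± 8.34 CPM to 11.7 ± 3.33 CPM. The chemokines Cxcl5 (4.21 ± 0.28) and Ccl6 (3.68 ± 0.30) were above 0 too, as were Ifit3b (4.88 ± 0.56), Socs2 (4.03 ± 0.27), Cish (1.75 ± 0.26), Thrb (3.53 ± 0.64), Sox9 (1.89 ± 0.20) and Ccna2 (1.91 ± 0.26). When the library labelled MIGA2-KO day 6 replicate 1 was left out, Lum was at 5.52, Spon2 at 4.54, Aldh1l1 at -8.23 and Hp at -7.22.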

How the results depend on the processing

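Higher and lower genes numbered 2834 and 2597 with RLE scaling, 2742 and 2519 with no filter, 2710 and 2427 with a minimum count of 30, 2926 and 2686 with DESeq2, and 3401 and 3401 with the 6 MIGA2-KO libraries alone. Without day 6 replicate 1 as well, an alternative chosen after seeing the data, they numbered 4041 and 3941. With a log2 fold change of at least 1 in size they numbered 1235 and 1086. Leaving out 1 MIGA2-KO library at a time gave 2334 to 2573 higher and 2169 to 2389 lower. Leaving out any 1 of the 12 MIGA2-KO and WT libraries gave 2541 to 5186 genes that differed from WT against 3346, with 5186 without WT day 0 replicate 1, and 7655 without replicate 1 of WT day 0, WT day 6 and MIGA2-KO day 6 together. The cause was not tested.

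With a replicate block the counts were 2630 higher, 2403 lower and 2790 that differed from WT. Deviations of same-numbered libraries correlated at -0.0645, -0.0158 and -0.0375, and no library of day 6 correlated best with its own number. All correlations were near 0 and replicate 1 of day 6 stood apart, so whether the numbers pair the samples cannot be told from these values.

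Of the 174 genes named, 167 were called over time, and RLE scaling lost 1 of them (Fasn), as did no filter. The block lost 4, Fasn, Hmgcs1, Tmem159 and Tnnt3. Over the libraries left out in turn Tnnt3 ranged from -2.56 (without MIGA2-KO day 6 replicate 3) to 4.31 and Mgp from -1.47 (without day 6 replicate 1) to 1.29. With the 6 libraries less day 6 replicate 1, Scd2 turned to -0.14, Mgp to -1.47 and Osr1 to 0.19. Of 29 called differences from WT that the text reports, 29 kept their call and direction under every alternative. They were picked among genes already called, so this does not describe how stable all 3346 called differences are. Of 30 lists with a median of at least 0.5 in size, 28 kept its sign under every alternative, the exceptions being the adipocyte receptors and the mesothelial genes. Genes with few counts at day 0 have folds limited by depth.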

Other observations

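A few small families gave further values in MIGA2-KO cells. Of 14 genes of retinoid metabolism and binding 7 were higher and 3 lower. Retsat, for retinol saturase, was at 44.9, 47.4 and 46.1 CPM at day 0 and 431, 228 and 213 CPM at day 6 (log2 fold change 2.65 ± 0.22, adjusted p = 1.48e-07 in edgeR), with replicate 1 of day 6 the highest. Aldh1a1, for a retinal dehydrogenase, was at 1.45, 0.994 and 2.595 CPM at day 0 and 16.3, 16.7 and 23.5 CPM at day 6 (log2 fold change 3.49 ± 0.25, adjusted p = 3.37e-08), and Dhrs9, for a retinol dehydrogenase, fell (74.5, 72.1 and 74.5 CPM at day 0 and 22.8, 13.2 and 15.2 CPM at day 6; log2 fold change -2.11 ± 0.31, adjusted p = 5.71e-05). Carbonic anhydrases, which hydrate carbon dioxide, were higher in 4 of 7. Car5b, the mitochondrial form, was at 28.7, 23.7 and 24.4 CPM at day 0 and 144, 142 and 143 CPM at day 6 (log2 fold change 2.48 ± 0.10, adjusted p = 1.02e-10). Car3, a form abundant in adult fat, had 0 counts at day 0 and was at least 43.9-fold higher at day 6, at 2.09, 2.55 and 5.83 CPM.

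Small GTPases of the ARL4 group went in opposite directions: Arl4a was at 2.89, 2.75 and 2.595 CPM at day 0 and 11.7, 10.9 and 9.84 CPM at day 6 (log2 fold change 1.97 ± 0.13, adjusted p = 1.28e-08) and Arl4c at 16.1, 17.4 and 14.8 CPM at day 0 and 7.65, 4.45 and 6.096 CPM at day 6 (log2 fold change -1.41 ± 0.18, adjusted p = 1.39e-05). Among antioxidant genes 16 of 37 were higher and 7 lower. Prdx6, for a peroxiredoxin, was at 128, 123 and 138 CPM at day 0 and 422, 596 and 598 CPM at day 6 (log2 fold change 2.06 ± 0.14, adjusted p = 3.10e-08), and Gsta3, for a glutathione transferase, rose from 0.481, 0.382 and 0.324 CPM to 4.09, 7.75 and 8.01 CPM (log2 fold change 4.03 ± 0.35, adjusted p = 3.11e-07). Tfrc, for the transferrin receptor, rose (28.8, 32.3 and 28.1 CPM at day 0 and 138, 144 and 157 CPM at day 6; log2 fold change 2.30 ± 0.17, adjusted p = 5.27e-08).

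Beside the genes high in it, the library labelled MIGA2-KO day 6 replicate 1 held less of some genes than its group. Cebpd, at 29.5, 80.6 and 78.5 CPM over the 3 day 6 libraries, was named under that rule. So was Osr1, for a transcription factor of connective tissue progenitors, at 46.1, 43.7 and 38.9 CPM at day 0 and 22.9, 51.9 and 45.7 CPM at day 6 and not called over time (log2 fold change -0.09 ± 0.23, adjusted p = 0.777). Mgp, for matrix Gla protein, was at 14.4, 14.4 and 14.3 CPM at day 0 and 64.7, 4.78 and 5.57 CPM at day 6: the library labelled replicate 1 lay above day 0 and the other 2 of its group below it (log2 fold change 0.80 ± 0.67, adjusted p = 0.367; -1.47 without it, adjusted p = 0.000524). Apoc1, for an apolipoprotein, was at 1.52, 1.76 and 1.22 CPM at day 0 and 196, 17.1 and 14.6 CPM at day 6 (log2 fold change 5.65 ± 0.92, adjusted p = 0.000149; 3.39 without replicate 1).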
